A study of Mus musculus with 12 samples.

Results

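The genes described here encode the proteins that copy chromosomal DNA and make its deoxynucleotide building blocks. They are a list of 46 mouse genes written by name. The list was drawn up with earlier results of these data known, so the counts below are not those of an independent list. Each gene was represented by the probe set that names it alone, and where several did, by the brightest on average over the 12 arrays. All 46 were found, and all 46 passed the filter on dim genes, among 14953 genes tested out of 19938 named on the array. They were measured on 1-colour whole-transcript arrays in neurons grown through embryoid bodies from D3, a mouse embryonic stem cell line, at day 16 of differentiation, with 3 biological replicates in each of 4 groups. The siPRMT1 and siPRMT8 groups came from D3 stem cell lines in which PRMT1 or PRMT8, enzymes that methylate arginines of proteins, was knocked down before differentiation began. The siSCR group came from D3 cells that carried a scrambled sequence, and the D3 group from unmodified cells. The sources used here do not say whether a line was 1 clone or whether replicates were differentiated separately. The p-values therefore cover only the spread among these samples, which may be technical, and a line's history cannot be told apart from its knockdown.

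DNA replication begins at origins marked by the origin recognition complex, where CDC6 and CDT1 load the hexameric MCM helicase in G1 phase. In S phase CDC45 and GINS join MCM to form the active CMG helicase, RPA coats the unwound strand, and polymerase alpha with primase starts each strand, which polymerases epsilon and delta extend on the PCNA clamp. Thymidylate synthase, thymidine kinase and ribonucleotide reductase supply deoxynucleotides, and CAF-1 places new histones on the copied DNA. Most of these genes are transcribed at the transition into S phase under control of E2F transcription factors, and postmitotic neurons normally keep them low, so their RNA is widely read as a sign of cycling cells. In bulk RNA a larger share of cycling cells and more of this RNA per cell cannot be told apart.

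Promoter windows of the members were read from the RefSeq table (build GRCm38.p6), which held 38 of the 46, each with 250 bases before and 50 after the start of transcription. For the 5 members with several windows the first was used. An E2F-type word (TTTCCCGC, TTTCGCGC, TTTGCCGC or TTTGGCGC, searched on both strands) stood in 12 of the 38 windows, or 31.6%, against 3.87% of 11746 windows of genes tested on the array. The CCAAT box, a 5-letter word bound by NF-Y and also searched on both strands, stood in 63.2% of the members' windows and 37.9% of those of the genes tested. These words are matches of letters and show no binding. The 12 members with an E2F-type word were Mcm3, Mcm5, Mcm6, Mcm7, Cdc6, Cdt1, Orc1, Gins3, Rfc3, Pola1, Pold1 and Pole2, and in Mcm5 and Mcm6 neighbouring words overlapped. Of the 6 windows that hold a word and belong to members that rose in each knockdown line against each control line, 4 are printed to show where such words lie. E2F-type words are in capitals, and each sequence runs 5′ to 3′ and stops 30 bases after the start.
Rfc3 (chr5:151651179-151651458, minus strand, words beginning at -10 and 1): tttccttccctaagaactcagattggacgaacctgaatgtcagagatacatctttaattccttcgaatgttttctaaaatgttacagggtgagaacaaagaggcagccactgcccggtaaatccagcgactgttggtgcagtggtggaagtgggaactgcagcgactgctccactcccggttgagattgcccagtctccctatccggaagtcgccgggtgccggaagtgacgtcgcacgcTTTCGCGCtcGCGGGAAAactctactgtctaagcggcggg
Pola1 (chrX:93632126-93632405, minus strand, word at -138): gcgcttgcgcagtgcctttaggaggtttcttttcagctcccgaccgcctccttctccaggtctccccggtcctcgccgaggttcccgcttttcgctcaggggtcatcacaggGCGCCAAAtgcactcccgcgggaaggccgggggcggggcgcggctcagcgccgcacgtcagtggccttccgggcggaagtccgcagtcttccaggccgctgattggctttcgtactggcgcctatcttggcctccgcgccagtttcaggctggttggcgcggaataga
Mcm7 (chr5:138171854-138172133, minus strand, words at -165 and 17): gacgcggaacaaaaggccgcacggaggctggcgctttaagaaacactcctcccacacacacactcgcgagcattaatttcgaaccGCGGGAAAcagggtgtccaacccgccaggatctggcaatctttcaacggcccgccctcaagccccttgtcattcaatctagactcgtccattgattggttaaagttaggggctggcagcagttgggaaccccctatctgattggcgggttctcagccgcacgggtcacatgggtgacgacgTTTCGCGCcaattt
Gins3 (chr8:95633309-95633588, plus strand, word at -41): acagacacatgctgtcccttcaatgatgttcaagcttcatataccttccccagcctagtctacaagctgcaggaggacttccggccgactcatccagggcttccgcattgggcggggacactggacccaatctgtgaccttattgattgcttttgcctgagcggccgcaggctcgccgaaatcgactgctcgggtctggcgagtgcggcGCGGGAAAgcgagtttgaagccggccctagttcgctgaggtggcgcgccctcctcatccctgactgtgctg
Positions count from the start of transcription, whose first base is 1. Among members that passed in all 4 comparisons of a knockdown with a control line, 6 of 19 windows held an E2F-type word, as did 6 of the other 19.

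The targeted genes were read first. Prmt1 measured 7.72, 7.95 and 7.59 on the log2 scale in siPRMT1, 9.27, 9.20 and 9.27 in siPRMT8, 8.84, 8.74 and 8.86 in siSCR and 8.69, 8.86 and 8.71 in D3. It was lower in siPRMT1 than in siSCR (log2 difference -1.06, adjusted p = 0.000115 in limma) and higher in siPRMT8 (0.43, adjusted p = 0.00625). A gene passed, and is said to have risen or fallen, where the Benjamini-Hochberg adjusted p over all genes tested was under 0.05. Prmt8 measured 6.35, 6.89 and 6.67 in siPRMT1, 6.44, 6.17 and 6.44 in siPRMT8, 6.60, 7.18 and 7.10 in siSCR and 7.37, 7.41 and 7.40 in D3. It was lower in siPRMT8 than in siSCR (-0.61, adjusted p = 0.0171), and its difference between siPRMT1 and siPRMT8 was 0.29 (adjusted p = 0.489), with overlapping values. In siPRMT1 its difference from siSCR was -0.32 (adjusted p = 0.177). Against D3 it was lower in both siPRMT1 (-0.75, adjusted p = 0.00488) and siPRMT8 (-1.04, adjusted p = 0.000993). Of the 12 arrays, siSCR replicate 1 stood away from its group: on the first principal component (61.4% of the variance) it lay at 0.105, while the 6 knockdown arrays lay at 13.6 to 25.7, siSCR replicates 2 and 3 at -26.2 and -22.2, and the D3 arrays at -22.7 to -21.6. All 10 neuron markers and all 7 pluripotent stem cell markers looked for passed the filter on dim genes. Their mean log2 level per array was 8.22 to 8.49 in the knockdown arrays and 8.63 to 9.68 in the control arrays for neuron markers, and 9.74 to 10.85 over the 12 arrays for pluripotency markers, so RNA of stem cell genes was present in every group.

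Most replication and nucleotide synthesis genes were higher in each knockdown line than in each control line, by modest amounts. Against siSCR, 29 of the 46 members rose in siPRMT1 and 0 fell, with a median log2 difference of 0.32 over the 46 and a range of 0.05 to 0.46. Of all genes tested, 7.18% rose in that comparison, with a median of 0.04. In siPRMT8, 27 rose and 0 fell (median 0.29, range -0.09 to 0.66), where 10.7% of all genes rose with a median of 0.01. A change of at least 1.5-fold was reached by 0 members in siPRMT1 and by 2 in siPRMT8, Tyms and Ccne2. Against the unmodified D3 line, 41 members rose and 0 fell in siPRMT1 (median 0.40), and 41 rose and 0 fell in siPRMT8 (median 0.40), where 11.7% and 12.5% of all genes rose. In either direction 18.7%, 23.8%, 26.4% and 27.7% of all genes passed in these 4 comparisons and the comparisons share their knockdown and control groups, so they are not independent.

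All 3 siPRMT1 arrays were above all 3 siSCR arrays for 33 members, against 15.2% of all genes, and the siPRMT8 arrays for 38, against 20.6%. Against D3 this held for 43 members in siPRMT1 (23.6% of all genes) and 45 in siPRMT8 (27.2%). No member had all knockdown arrays below a control group, which 14.8% and 21.2% of all genes had against siSCR and 20.6% and 25.3% against D3. The median over the 46 members, taken as log2 difference from the D3 mean, was 0.45, 0.30 and 0.38 in siPRMT1, 0.38, 0.36 and 0.44 in siPRMT8, 0.24, 0.04 and 0.01 in siSCR and 0.00, 0.03 and -0.04 in D3. The 6 knockdown arrays all lay above the 6 control arrays, and siSCR replicate 1 lay between the other siSCR arrays and the knockdown arrays. On that array 44 of the 46 members were above both other siSCR arrays (median 0.20), and all 10 neuron markers were below both (median -0.99). How many of all genes did so was not counted, so these counts are not shown to be particular to the lists. Without siSCR replicate 1, 37 members rose in siPRMT1 and 39 in siPRMT8 against siSCR, while 25.2% and 27.5% of all genes were called in either direction.

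**Figure D1:**
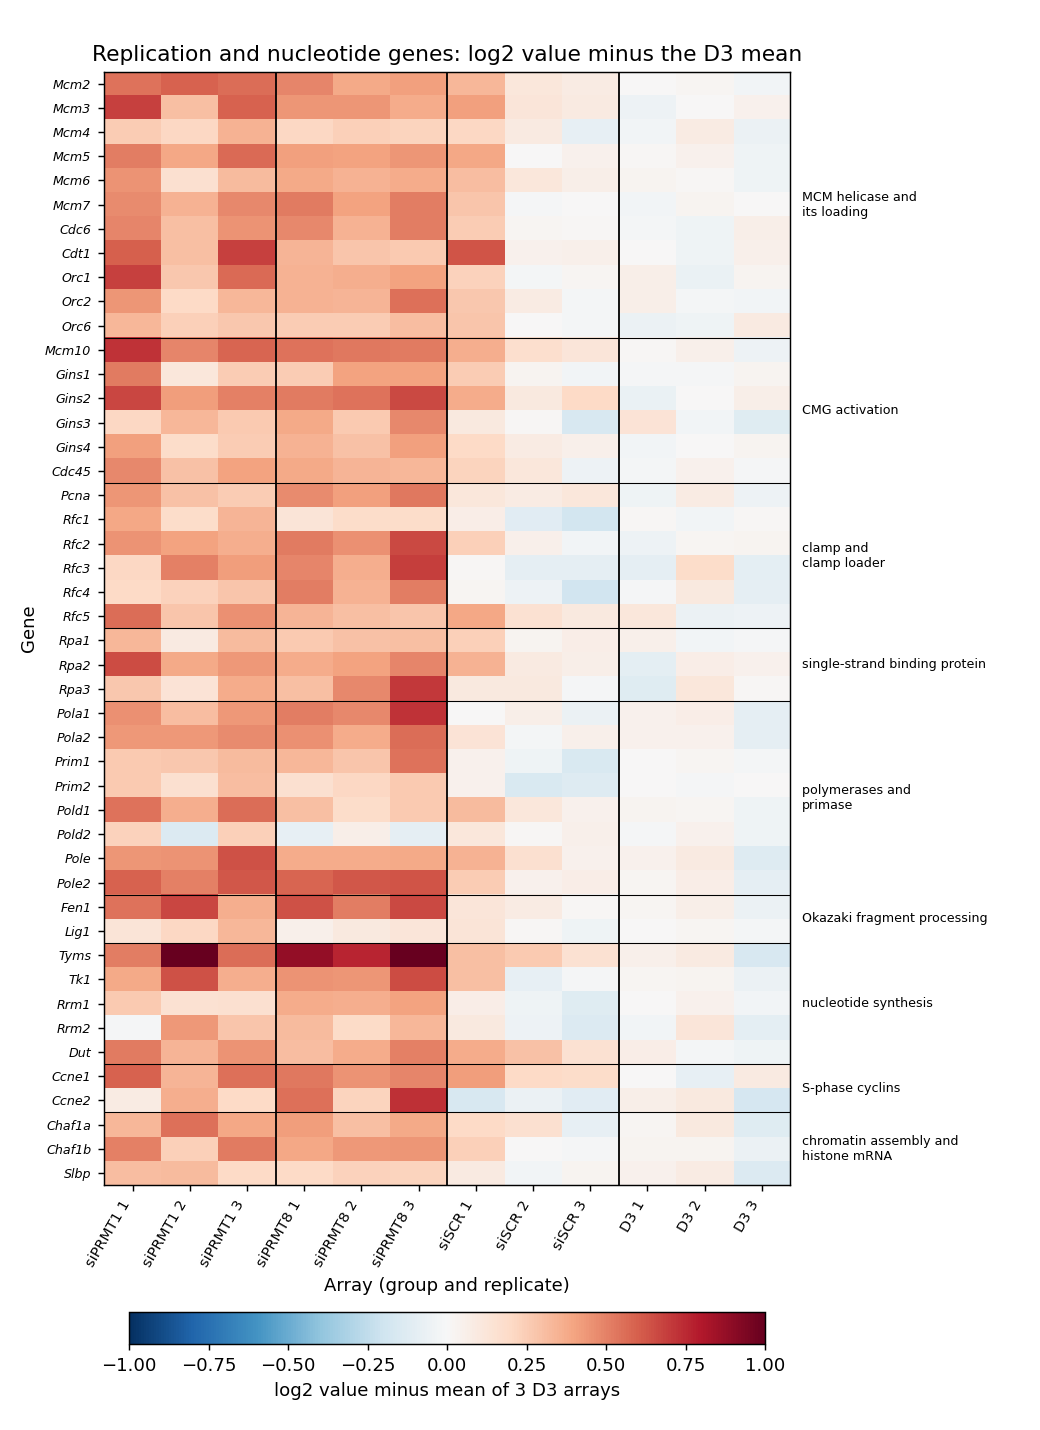
Each cell is the log2 value of 1 gene on 1 array minus the mean of the 3 D3 arrays, with genes in rows by role and arrays in columns by group. On each knockdown array at least 45 of the 46 genes are above the D3 mean, siSCR replicate 1 is raised for most genes, and Tyms is the most raised row, with a highest value of 1.06.

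The helicase and its loading factors act first. Of these 11 genes, 5 rose in siPRMT1 and 4 in siPRMT8 against siSCR (medians 0.32 and 0.26), and 11 and 10 rose against D3. Mcm2, a subunit of the MCM ring, measured 10.37, 10.42 and 10.39 in siPRMT1, 10.32, 10.21 and 10.24 in siPRMT8, 10.16, 9.94 and 9.91 in siSCR and 9.83, 9.85 and 9.80 in D3. Every knockdown array was above every control array, and against siSCR the log2 difference was 0.39 in siPRMT1 (SE 0.0698, adjusted p = 0.00379) and 0.26 in siPRMT8 (SE 0.0698, adjusted p = 0.0212). Cdc6, which loads MCM at origins, measured 7.43, 7.24 and 7.39 in siPRMT1, 7.42, 7.29 and 7.45 in siPRMT8, 7.19, 6.96 and 6.95 in siSCR and 6.92, 6.90 and 7.0 in D3. It too separated without overlap, with differences from siSCR of 0.32 (adjusted p = 0.0184) and 0.35 (adjusted p = 0.00997). Mcm7 rose by 0.34 in siPRMT1 and 0.39 in siPRMT8, whereas Mcm3, Mcm4 and Mcm6 did not pass against siSCR in either line, with differences of 0.15 to 0.32.

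Orc1, the large subunit of the origin recognition complex, measured 8.36, 7.95 and 8.25 in siPRMT1, 8.03, 8.04 and 8.08 in siPRMT8, 7.91, 7.66 and 7.70 in siSCR and 7.74, 7.61 and 7.71 in D3. The knockdown arrays did not overlap the control arrays, and the test passed against siSCR in siPRMT1 (0.43, adjusted p = 0.0134) but not in siPRMT8 (0.29, adjusted p = 0.0538). Orc2 differed from siSCR by 0.21 in siPRMT1 (adjusted p = 0.131) and rose by 0.30 in siPRMT8 (adjusted p = 0.0321). Cdt1, the partner of CDC6 in loading, measured 9.16, 8.86 and 9.24 in siPRMT1, 8.90, 8.84 and 8.82 in siPRMT8, 9.19, 8.60 and 8.61 in siSCR and 8.56, 8.52 and 8.61 in D3. The siSCR replicate 1 value lay among the siPRMT1 values, and the differences from siSCR, 0.29 and 0.05, did not pass (adjusted p = 0.185 and 0.83). Over the 16 alternative settings the adjusted p of Cdt1 in siPRMT1 ran from 2.37e-05 to 0.497, and it passed in 3 of them.

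Among the 6 genes that turn the loaded ring into the active helicase, 4 rose in siPRMT1 and 5 in siPRMT8 against siSCR (median 0.29 in each). Mcm10, which binds the CMG helicase as it starts to unwind, measured 9.02, 8.79 and 8.88 in siPRMT1, 8.84, 8.83 and 8.82 in siPRMT8, 8.66, 8.47 and 8.42 in siSCR and 8.31, 8.35 and 8.25 in D3. All knockdown values exceeded all siSCR values, and the differences were 0.38 (adjusted p = 0.00678) and 0.31 (adjusted p = 0.014). Gins3, a subunit of the GINS complex whose promoter word is shown above, measured 7.15, 7.27 and 7.20 in siPRMT1, 7.32, 7.20 and 7.42 in siPRMT8, 7.04, 6.95 and 6.78 in siSCR and 7.08, 6.91 and 6.82 in D3. It rose in siPRMT1 (0.29, adjusted p = 0.0431, a call lost in 9 of 16 alternative settings) and in siPRMT8 (0.39, adjusted p = 0.00967). Gins2 and Cdc45 rose in both lines, by 0.26 to 0.35. Gins1 passed in neither line against siSCR, with differences of 0.21 and 0.27.

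Of the 6 genes of the clamp and its loader, 5 rose in each line against siSCR (medians 0.31 in siPRMT1 and 0.41 in siPRMT8). Pcna, the sliding clamp, measured 11.34, 11.19 and 11.15 in siPRMT1, 11.37, 11.31 and 11.43 in siPRMT8, 11.01, 10.98 and 11.01 in siSCR and 10.86, 10.98 and 10.85 in D3. Its difference from siSCR was 0.23 in siPRMT1 (adjusted p = 0.0349) and 0.37 in siPRMT8 (adjusted p = 0.00321). A second probe set for Pcna gave the same 2 differences, 0.23 and 0.37. The siPRMT1 call was lost in 7 of 16 alternative settings, while the siPRMT8 call passed in all 16.

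Rfc3, a small subunit of the clamp loader, measured 8.54, 8.83 and 8.75 in siPRMT1, 8.82, 8.69 and 9.02 in siPRMT8, 8.34, 8.24 and 8.24 in siSCR and 8.24, 8.51 and 8.23 in D3. It was 1.35-fold higher than siSCR in siPRMT1 (log2 0.44, adjusted p = 0.0154) and 1.49-fold in siPRMT8 (log2 0.57, adjusted p = 0.00369), with no overlap of either line with either control. Rfc4, another small subunit, measured 10.23, 10.26 and 10.31 in siPRMT1, 10.54, 10.38 and 10.54 in siPRMT8, 10.05, 9.98 and 9.84 in siSCR and 10.02, 10.13 and 9.94 in D3. All knockdown arrays exceeded all control arrays, and the differences from siSCR were 0.31 in siPRMT1 (adjusted p = 0.0159) and 0.53 in siPRMT8 (adjusted p = 0.00123). Rfc1, the large subunit, rose by 0.37 and 0.23. Rfc5 passed in neither line against siSCR, with differences of 0.22 and 0.09.

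Replication protein A, the trimer that coats single-stranded DNA, had 1 of 3 genes higher in each line against siSCR, Rpa2 in siPRMT1 and Rpa3 in siPRMT8. Neither gene passed between siPRMT1 and siPRMT8, with differences of 0.06 for Rpa2 (adjusted p = 0.829) and -0.24 for Rpa3 (adjusted p = 0.382). Rpa2 measured 9.48, 9.21 and 9.26 in siPRMT1, 9.20, 9.23 and 9.32 in siPRMT8, 9.18, 8.92 and 8.89 in siSCR and 8.73, 8.90 and 8.87 in D3. It rose in siPRMT1 (0.32, adjusted p = 0.036), and its difference in siPRMT8 was 0.25 (adjusted p = 0.0711). Rpa3 measured 8.29, 8.16 and 8.39 in siPRMT1, 8.32, 8.50 and 8.73 in siPRMT8, 8.12, 8.12 and 8.01 in siSCR and 7.90, 8.13 and 8.03 in D3. It rose in siPRMT8 (0.44, adjusted p = 0.012), and its difference in siPRMT1 was 0.20 (adjusted p = 0.209). For Rpa3 the probe sets disagreed, since the second one differed from siSCR by 0.19 in siPRMT1 and 0.16 in siPRMT8. Rpa1 differed by 0.13 and 0.17 and did not pass.

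Polymerases and primase were the largest group after the helicase, and 7 of 8 rose in siPRMT1 and 5 of 8 in siPRMT8 against siSCR (medians 0.33 and 0.35). Pola1, the catalytic subunit of polymerase alpha, measured 8.05, 7.90 and 8.02 in siPRMT1, 8.10, 8.07 and 8.31 in siPRMT8, 7.59, 7.65 and 7.53 in siSCR and 7.63, 7.66 and 7.50 in D3. The knockdown and control arrays were clearly apart, and siSCR replicate 1 lay with the other controls. The differences from siSCR were 0.40 (adjusted p = 0.00572) and 0.57 (adjusted p = 0.00109). Its partners Pola2, Prim1 and Prim2 rose in both lines by 0.29 to 0.43. Pole2, the second subunit of the leading-strand polymerase epsilon, measured 8.93, 8.84 and 8.96 in siPRMT1, 8.92, 8.96 and 8.97 in siPRMT8, 8.59, 8.38 and 8.41 in siSCR and 8.36, 8.41 and 8.25 in D3. It rose by 0.45 in siPRMT1 (SE 0.0697, adjusted p = 0.00213) and by 0.49 in siPRMT8 (SE 0.0697, adjusted p = 0.00122), and it was the 1 member of the 23 followed through the alternative settings whose call against siSCR passed in all 16 of them in both lines.

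Polymerase delta extends the lagging strand. Pold1, its catalytic subunit, measured 8.52, 8.34 and 8.54 in siPRMT1, 8.28, 8.16 and 8.24 in siPRMT8, 8.30, 8.09 and 8.02 in siSCR and 8.01, 8.00 and 7.94 in D3. It rose in siPRMT1 against siSCR (0.33, adjusted p = 0.0181), while in siPRMT8 its values overlapped siSCR and the difference of 0.09 did not pass (adjusted p = 0.471). Pold2, the accessory subunit, measured 10.73, 10.36 and 10.74 in siPRMT1, 10.42, 10.56 and 10.41 in siPRMT8, 10.61, 10.51 and 10.55 in siSCR and 10.49, 10.54 and 10.46 in D3. All 4 groups overlapped, with differences of 0.05 and -0.09 from siSCR and 0.11 and -0.03 from D3. Pold2 and Rrm2 were the 2 members that passed in none of the 4 comparisons of a knockdown with a control line, whereas 22 passed in all 4. The 4 comparisons share their groups. How many of all genes passed in all 4 or in none was not counted, so these counts are not shown to be particular to the members. Cdt1, Pold1 and Pold2 were chosen for a full account after their values were seen.

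Fen1 and Lig1 finish Okazaki fragments, the short pieces of the lagging strand, by cutting the flap and sealing the nick. Fen1 measured 8.02, 8.15 and 7.84 in siPRMT1, 8.12, 7.99 and 8.14 in siPRMT8, 7.60, 7.56 and 7.49 in siSCR and 7.50, 7.54 and 7.42 in D3. Its lowest knockdown array lay well above its highest control array, and the differences from siSCR were 0.45 (adjusted p = 0.00372) and 0.53 (adjusted p = 0.00155). Lig1 measured 9.21, 9.29 and 9.41 in siPRMT1, 9.13, 9.18 and 9.20 in siPRMT8, 9.21, 9.09 and 9.04 in siSCR and 9.08, 9.10 and 9.06 in D3. Its differences from siSCR, 0.19 and 0.06, did not pass (adjusted p = 0.063 and 0.551), and its siPRMT8 values overlapped siSCR.

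Of the 5 nucleotide synthesis genes, 3 rose in each line against siSCR, with medians of 0.26 in siPRMT1 and 0.41 in siPRMT8 over the 5. Tyms, which makes thymidylate, measured 8.65, 9.17 and 8.70 in siPRMT1, 9.02, 8.90 and 9.19 in siPRMT8, 8.44, 8.40 and 8.29 in siSCR and 8.19, 8.23 and 7.98 in D3. It was 1.38-fold higher in siPRMT1 (log2 0.46, SE 0.129, adjusted p = 0.0293) and 1.58-fold higher in siPRMT8 (log2 0.66, SE 0.129, adjusted p = 0.00494) than in siSCR, and 1.63-fold and 1.87-fold higher than in D3. Tk1, the salvage kinase for thymidine, measured 8.81, 9.07 and 8.79 in siPRMT1, 8.88, 8.87 and 9.08 in siPRMT8, 8.73, 8.35 and 8.42 in siSCR and 8.45, 8.46 and 8.37 in D3. Its siSCR replicate 1 value came close to the knockdown arrays, and the differences were 0.39 (adjusted p = 0.0265) and 0.44 (adjusted p = 0.0129).

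Ribonucleotide reductase, which makes deoxynucleotides from ribonucleotides, has a large and a small subunit. Rrm1, the large one, was higher than in siSCR by 0.22 (siPRMT1, adjusted p = 0.0284) and 0.41 (siPRMT8, adjusted p = 0.0015). Rrm2, the small one, measured 9.74, 10.18 and 10.03 in siPRMT1, 10.07, 9.94 and 10.08 in siPRMT8, 9.85, 9.70 and 9.61 in siSCR and 9.72, 9.87 and 9.65 in D3. The siPRMT1 values overlapped both controls, while the siPRMT8 values lay above both. Its differences from siSCR, 0.26 and 0.31, did not pass (SE 0.108, adjusted p = 0.113 and 0.0555). Dut, which removes dUTP, differed from siSCR by 0.17 and 0.12 and did not pass, but rose against D3 in both lines (0.43 and 0.39).

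The E-type cyclins drive the entry into S phase. Ccne1 measured 10.10, 9.85 and 10.06 in siPRMT1, 10.04, 9.96 and 10 in siPRMT8, 9.93, 9.71 and 9.69 in siSCR and 9.51, 9.43 and 9.60 in D3. It rose against D3 in both lines (0.49 in each, adjusted p = 0.00178 and 0.00194) and did not pass against siSCR (0.23 and 0.22, adjusted p = 0.082 and 0.0768). All 3 siSCR arrays lay above all D3 arrays, a difference that did not pass (0.26, adjusted p = 0.322). Against siSCR it passed in 4 of 16 alternative settings in siPRMT1 and in 3 of 16 in siPRMT8, those without siSCR replicate 1 among them. Ccne2 measured 6.97, 7.25 and 7.09 in siPRMT1, 7.44, 7.11 and 7.62 in siPRMT8, 6.73, 6.83 and 6.78 in siSCR and 6.95, 6.99 and 6.72 in D3. It was 1.53-fold higher in siPRMT8 than in siSCR (log2 0.61, adjusted p = 0.00521), and its difference of 0.32 in siPRMT1 did not pass (adjusted p = 0.086).

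Of the 3 genes of chromatin assembly and histone RNA, 3 rose in siPRMT1 and 2 in siPRMT8 against siSCR. Chaf1a, the large subunit of CAF-1, measured 8.06, 8.28 and 8.12 in siPRMT1, 8.15, 8.03 and 8.11 in siPRMT8, 7.93, 7.89 and 7.65 in siSCR and 7.75, 7.83 and 7.61 in D3, and rose by 0.33 and 0.28 against siSCR (adjusted p = 0.0255 and 0.0427). Chaf1b, its middle subunit, measured 9.26, 9.0 and 9.28 in siPRMT1, 9.15, 9.19 and 9.20 in siPRMT8, 9.0, 8.76 and 8.75 in siSCR and 8.79, 8.79 and 8.70 in D3. Its lowest siPRMT1 array was level with its highest siSCR array to the second decimal, and it rose by 0.35 in each line (adjusted p = 0.0183 and 0.0152). Slbp, which binds the stem loop of histone RNA, rose by 0.25 in siPRMT1 (adjusted p = 0.0259) and differed by 0.19 in siPRMT8 (adjusted p = 0.0651).

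**Figure D2:**
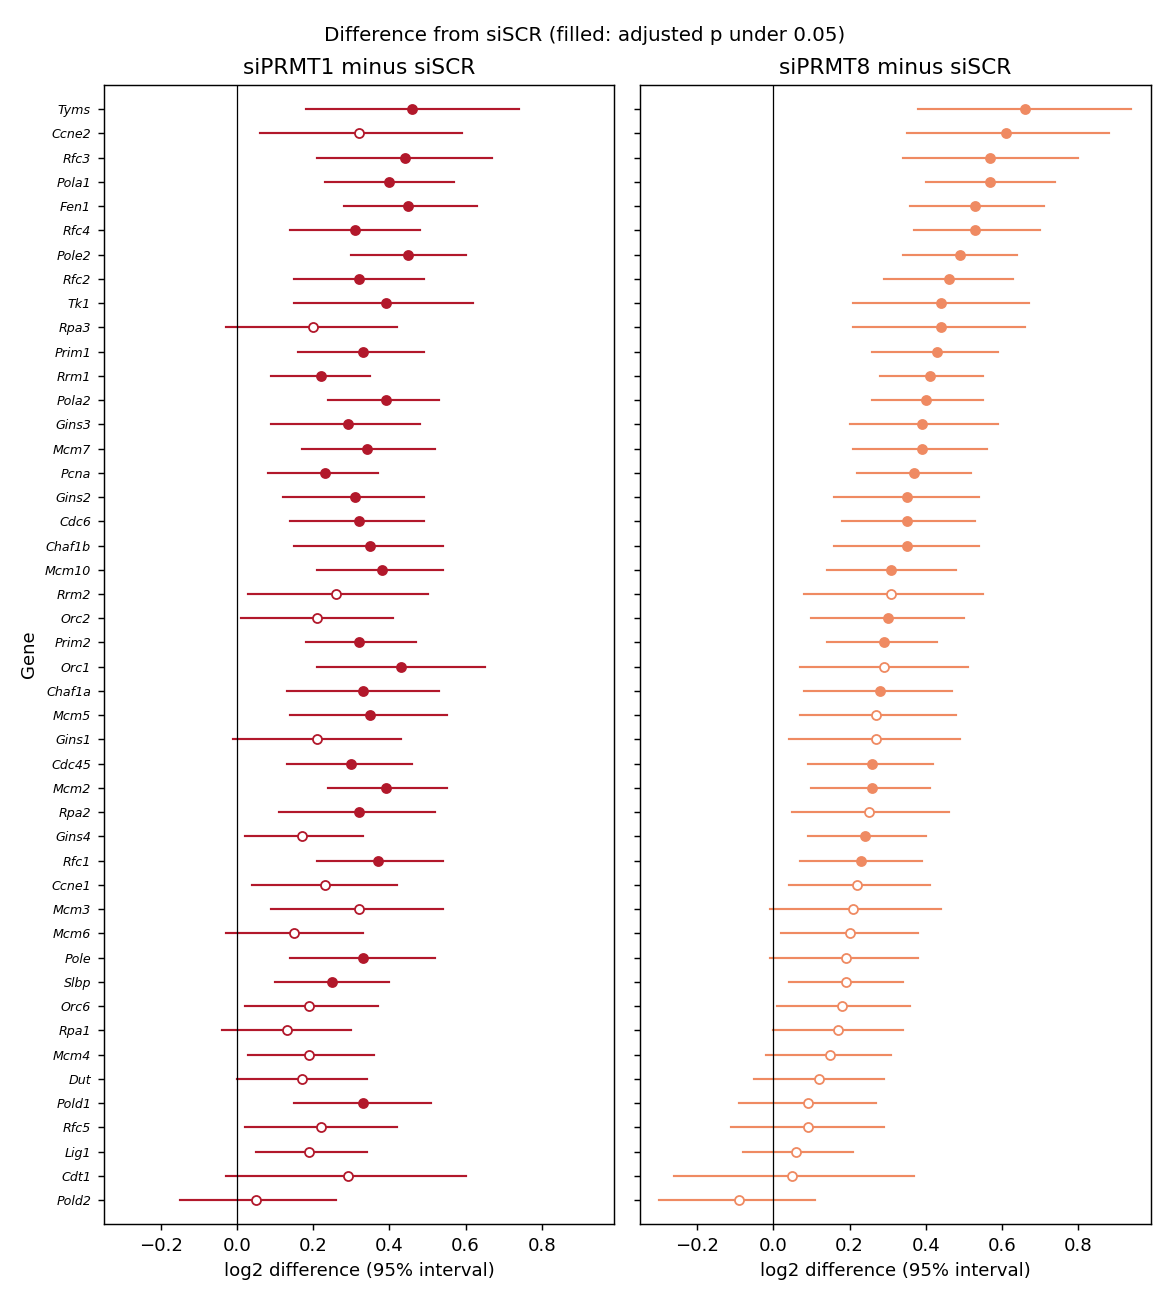
Points are log2 differences of the 46 genes from siSCR with 95% intervals, siPRMT1 on the left and siPRMT8 on the right, sorted by the siPRMT8 difference, and filled points passed at an adjusted p under 0.05. Filled points number 29 and 27, and the points run from 0.05 to 0.46 in siPRMT1 and from -0.09 to 0.66 in siPRMT8.

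The number of members called against siSCR depended on single arrays. In siPRMT1, 8 members passed without siSCR replicate 3, 10 without siSCR replicate 2, 15 without siPRMT1 replicate 3 and 37 without siSCR replicate 1, and the median stayed between 0.26 and 0.38. The share of all genes called moved as well, to 8.81%, 8.81%, 11.8% and 25.2% in these 4 settings. A fit of siPRMT1 and siSCR alone called 1 member, Pole2, and 357 of all genes (2.39%), in place of 2801 genes in the fit over the 4 groups. In siPRMT8 the count was 16 without siSCR replicate 3, 17 without siSCR replicate 2, 17 without siPRMT8 replicate 3 and 39 without siSCR replicate 1, and the median was 0.25 to 0.37, while 12.4%, 13.3%, 12.1% and 27.5% of all genes were called. Against D3 the counts were 29 to 41 in siPRMT1 and 32 to 36 in siPRMT8 with each array of the compared groups left out in turn. Of all genes 17.7% to 31.0% and 18.3% to 22.5% were called in these settings.

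**Figure D3:**
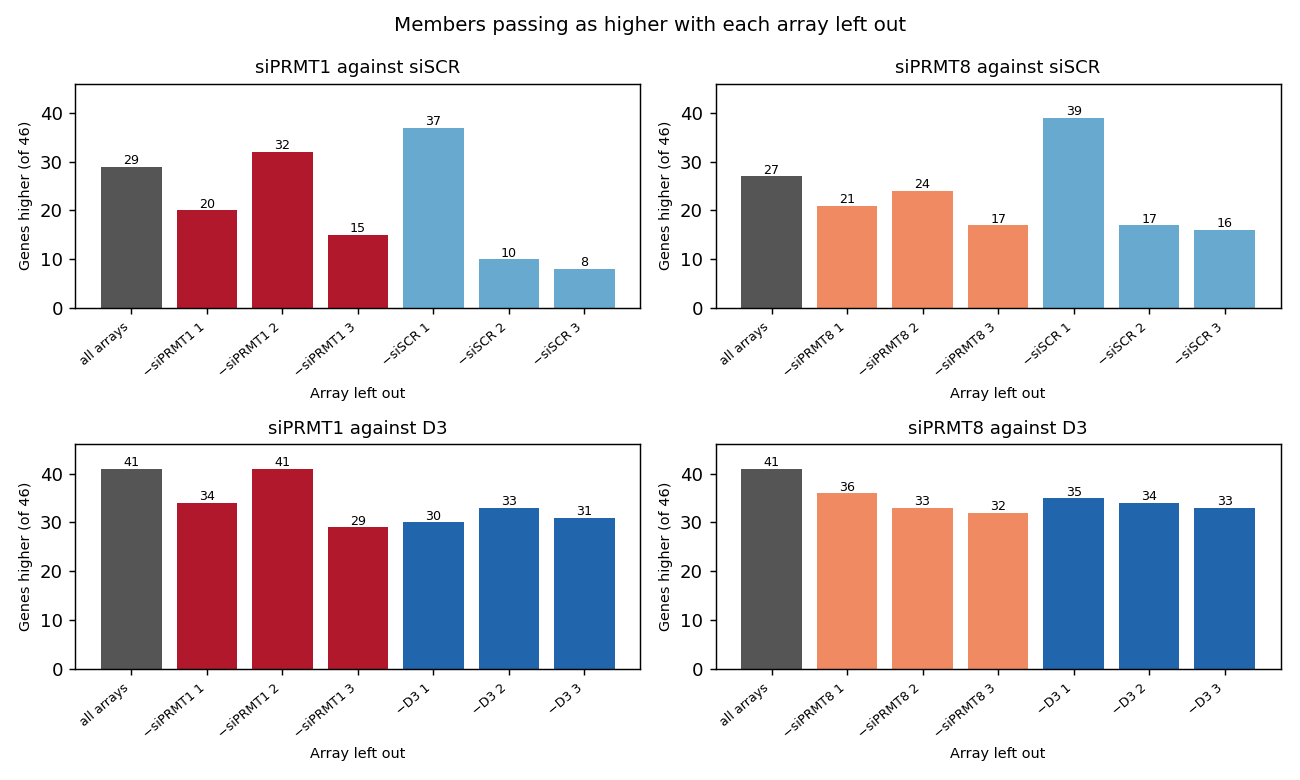
Bars are the number of the 46 genes that passed as higher, with all arrays in grey and with 1 array left out in colour, in the 4 comparisons of a knockdown with a control line. The lowest bar is 8, for siPRMT1 against siSCR without siSCR replicate 3, and the bars against D3 stay between 29 and 41.

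The knockdown lines were then set against each other. None of the 46 members passed between siPRMT1 and siPRMT8 in limma (0 higher and 0 lower, where 0.0869% and 0.0669% of all genes were called), with differences of -0.29 to 0.24 and a median of -0.03. At an unadjusted p under 0.05, 1 was higher in siPRMT1, Pold1 (0.24, adjusted p = 0.292), and 4 were lower, Rfc4, Rpa3, Rrm1 and Ccne2 (-0.29 to -0.19). Of all 14953 genes 1824 were under that p in either direction, so 5 of 46 members was no larger a share. The 95% intervals had a median half-width of 0.18 and together ran from -0.55 to 0.54, so a miss here does not show that the lines are alike. The groups did not overlap for 5 higher members and 4 lower ones, against 8.00% and 7.82% of all genes. Pold1 was higher in all 3 siPRMT1 arrays and Rfc4 and Rrm1 lower in all 3. With the arrays weighted by quality 4 members passed (Cdt1, Pold1, Pold2 and Rrm1), beside 1046 of all 14953 genes. Without siPRMT1 replicate 2 alone 1 passed (Pold2), beside 862 genes (5.76%), and without both siPRMT1 replicate 2 and siSCR replicate 1, 7 passed, beside 1901 genes (12.7%). The members' counts in these settings were near the share of all genes.

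On siPRMT1 replicate 2, 29 of the 46 members were below both other siPRMT1 arrays, led by Pold2, Orc1 and Cdt1 (down to -0.37), and 10 were above both, led by Tyms, Rrm2 and Tk1 (up to 0.49). All 19 mitotic genes were below both other arrays there, with a median of -0.31. Such counts were not taken over all genes, so they are not shown to be particular to these lists. Cell type markers differed on that array too. As medians of the log2 difference from the D3 mean, pluripotency markers stood at -0.55 there, against 0.54 and 0.24 on siPRMT1 replicates 1 and 3, mesenchymal markers at -0.48, against -0.16 and -0.20, and endothelial and myeloid markers at -0.66, against 0.06 and -0.02. Their part in the replication gene values was not tested. With siPRMT1 replicate 2 left out, 32 members rose in siPRMT1 against siSCR and 41 against D3. The share of all genes called in either direction was then 22.6% and 31.0%.

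The control lines were then compared with each other. None of the 46 passed in limma between siSCR and D3 (0 higher and 0 lower, and 0 with array weights), where 0.0602% of all genes were higher and 0.0936% lower. The median difference was 0.09 and the range -0.11 to 0.27, and 6 members were higher at an unadjusted p under 0.05, led by Dut (0.27, adjusted p = 0.261) and Ccne1 (0.26, adjusted p = 0.322). At that p 0 members were lower, while of all 14953 genes 1430 were under it in either direction. How many of all genes were higher at that p was not counted, so the 6 members cannot be set against a share. The siSCR arrays lay above all D3 arrays for 10 members, or 21.7%, against 10.7% of all genes, and below them for 0, against 9.56%. Without siSCR replicate 1 the median was 0.02 and 0 members passed.

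**Figure D4:**
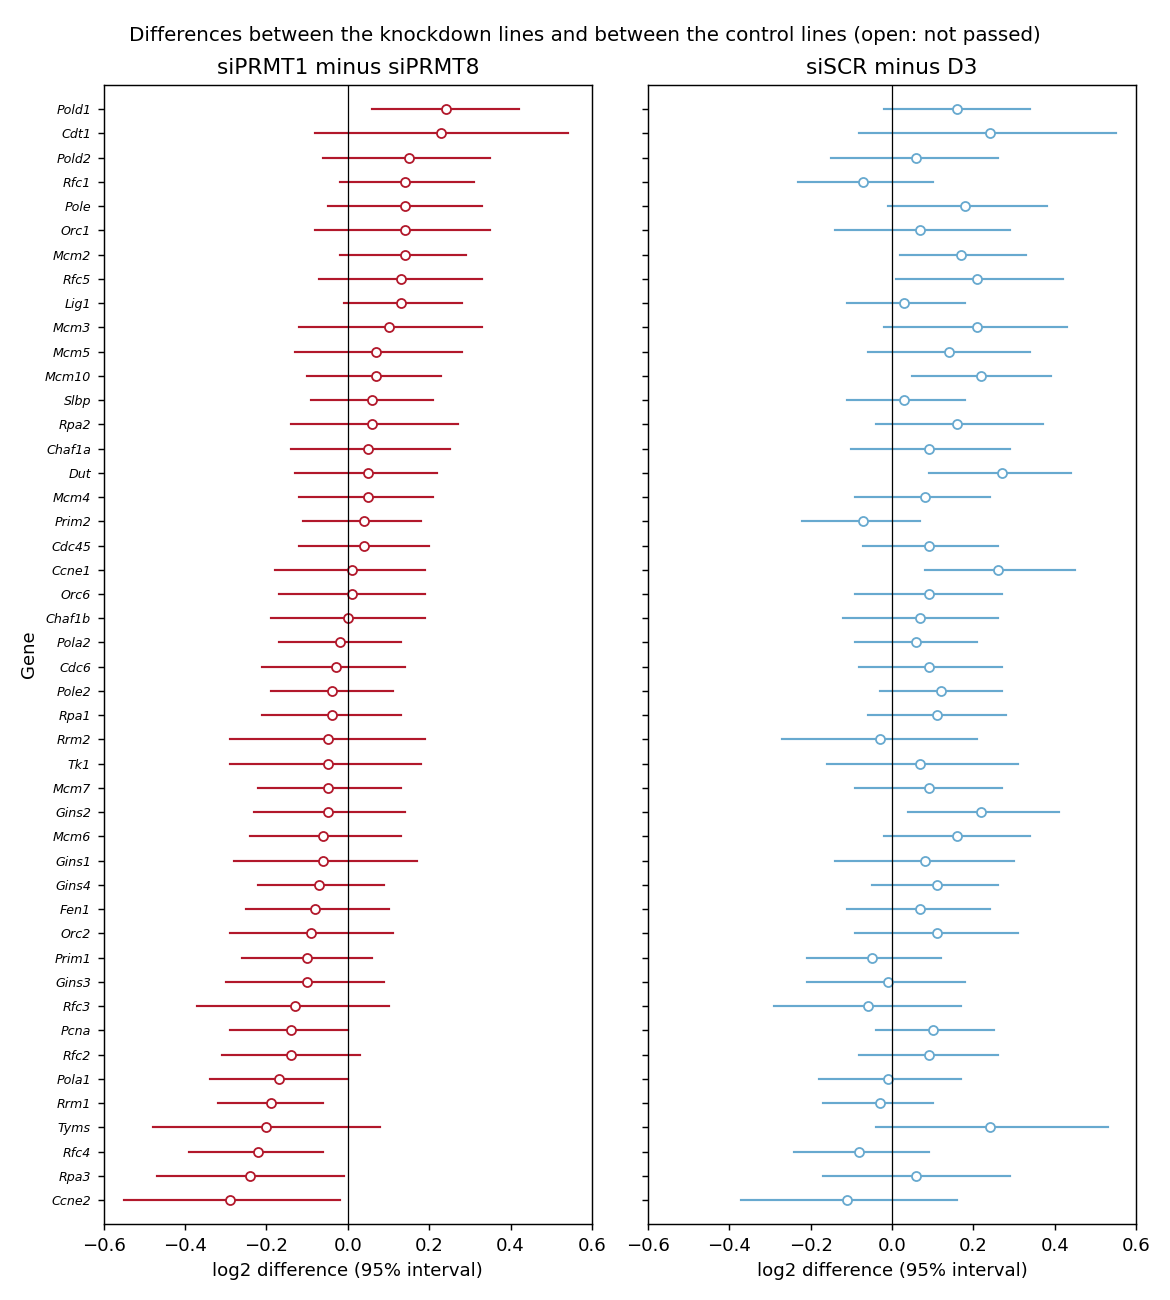
Points are log2 differences of the 46 genes with 95% intervals, siPRMT1 minus siPRMT8 on the left and siSCR minus D3 on the right, in the order of the left panel, and all are open because none passed. The left points lie between -0.29 and 0.24 and the right ones between -0.11 and 0.27.

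Other genes of the pathway came from separate lists. Against siSCR 7.18% of all genes rose and 11.6% fell in siPRMT1, and 10.7% and 13.2% in siPRMT8. Of 41 further replication genes, 14 rose and 0 fell in siPRMT1 against siSCR (median 0.24), and 16 rose and 1 fell in siPRMT8 (median 0.25). Cdca7, which aids a chromatin remodeller, rose by 0.56 and 0.50, and Clspn, the fork protein claspin, by 0.55 and 0.53. Asf1a, a histone chaperone, rose by 0.56 in siPRMT8, while its 0.23 in siPRMT1 did not pass. Of 24 other nucleotide synthesis genes, 6 rose and 0 fell in siPRMT1 (median 0.21), and 8 rose and 1 fell in siPRMT8 (median 0.15). Umps, of pyrimidine synthesis, led them with 0.36 and 0.45.

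The E2F and RB families regulate many of these genes. Of their 13 genes, 2 rose and 2 fell in siPRMT1 against siSCR, and 3 rose and 2 fell in siPRMT8, while 11.6% of all genes fell in siPRMT1 and 13.2% in siPRMT8, so the counts of falls were near the share of all genes. Rbl2, a pocket protein that represses E2F targets in resting cells, measured 7.07, 6.63 and 7.0 in siPRMT1, 6.71, 6.94 and 6.94 in siPRMT8, 7.47, 7.47 and 7.37 in siSCR and 7.57, 7.38 and 7.44 in D3. It fell by 0.54 (adjusted p = 0.0072) and by 0.57 (adjusted p = 0.0042) on the log2 scale, with no knockdown array in the range of the controls. E2f1, an activating E2F, differed from siSCR by 0.23 and 0.21 and did not pass (adjusted p = 0.0562 and 0.0714), but rose against D3 (0.31 and 0.29). E2f3 rose in siPRMT8 (0.59, adjusted p = 0.00532) and differed by 0.16 in siPRMT1 (adjusted p = 0.354). Of 13 genes of G1 control, among them cyclins, kinases and inhibitors, 1 rose in each line (7.69%) and 0 fell. Cdc25a rose in siPRMT1 (0.23) and Cdk4 in siPRMT8 (0.30). Of all genes 7.18% rose in siPRMT1 and 10.7% in siPRMT8, so these counts were near the share of all genes. Cdkn1a was not analysed here.

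Genes of mitosis were looked at beside them. Of 19, 4 rose and 0 fell in each line against siSCR (medians 0.21 and 0.17), where 7.18% and 10.7% of all genes rose. The kinetochore genes Cenpf (0.58 and 0.43) and Cenpe (0.55 and 0.54) rose in both lines. Against D3, 6 rose in siPRMT1 and 3 in siPRMT8, and 0 fell (medians 0.22 and 0.13). Of all genes 11.7% and 12.5% rose there, so the siPRMT8 count, 15.8%, was near that share. The differences of Cenpf and Cenpe were smaller against D3 than against siSCR. Cenpf did not pass there (0.28 and 0.13, adjusted p = 0.154 and 0.539), and Cenpe rose by 0.29 and 0.27. Between siSCR and D3 the differences were -0.30 for Cenpf and -0.26 for Cenpe, and neither passed (adjusted p = 0.527 and 0.321). Mki67, the proliferation marker, measured 10.29, 10.08 and 10.29 in siPRMT1, 10.29, 10.36 and 10.28 in siPRMT8, 9.96, 10.17 and 10.07 in siSCR and 10.19, 10.25 and 10.13 in D3. It rose against siSCR in siPRMT8 (0.24, adjusted p = 0.0375), not in siPRMT1 (0.15, adjusted p = 0.184), and its differences from D3, 0.03 and 0.12, did not pass. Top2a differed by 0.11 and 0.12 from siSCR and by 0.03 from D3 in each line, and none of these passed. On siSCR replicate 1 Cenpf, Cenpe and Mki67 were below both other siSCR arrays, while 16 of the 19 mitotic genes were above both. Here too all genes were not counted.

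Markers of cell types differed as well. Of all genes, 7.18% rose and 11.6% fell in siPRMT1 against siSCR, and 10.7% and 13.2% in siPRMT8. Against D3, 11.7% rose and 14.7% fell in siPRMT1, and 12.5% and 15.2% in siPRMT8. Of 10 neuron markers, 9 fell in siPRMT1 and 7 in siPRMT8 against siSCR (medians -1.08 and -1.01), and all 10 fell in each line against D3. Mapt, the axonal tau gene, measured 7.37, 7.03 and 7.21 in siPRMT1, 6.91, 7.37 and 7.19 in siPRMT8, 7.82, 9.14 and 9.08 in siSCR and 8.84, 8.85 and 8.97 in D3. Summed as a mean log2 level, the 10 markers stood at 8.22 to 8.32 in siPRMT1, 8.24 to 8.49 in siPRMT8, 8.63 to 9.68 in siSCR and 9.57 to 9.68 in D3. On siSCR replicate 1 the Mapt value lay between those of the knockdown arrays and of the other controls, as the medians of the replication genes did in the opposite direction. Of 8 neural progenitor markers, 1 rose and 1 fell in siPRMT1, and 4 rose and 0 fell in siPRMT8, against siSCR, with Prom1 higher in both (0.41 and 0.64). The siPRMT1 counts, 12.5% each, were near the shares of all genes. Of 7 pluripotency markers 0 passed in either line against siSCR (0 also at an unadjusted p under 0.05). Their median differences were -0.22 in siPRMT1 and -0.33 in siPRMT8, with 6 negative and 1 positive in each line. All siPRMT8 arrays lay below all siSCR arrays for 4 of them, against 21.2% of all genes, and the siPRMT1 arrays for 0. The intervals of these markers had a median half-width of 0.53, so a miss here does not show that their RNA was unchanged. Against D3, 0 progenitor markers rose and 3 fell in siPRMT1, 2 rose and 1 fell in siPRMT8, and 1 pluripotency marker rose in each line. The median differences of the pluripotency markers from D3 were 0.08 in siPRMT1, -0.09 in siPRMT8 and 0.26 in siSCR. In siSCR all 7 differed upwards from D3 and 0 passed. All 4 astrocyte markers tested fell in both lines against each control. Of 5 mesenchymal markers, 4 fell in each line against siSCR and 2 against D3. The astrocyte mean log2 level was 6.47 to 6.65 in siPRMT1, 6.38 to 6.77 in siPRMT8, 7.30 to 7.85 in siSCR and 7.50 to 7.52 in D3, and the mesenchymal one 6.97 to 7.48, 7.19 to 7.57, 7.90 to 7.98 and 7.74 to 7.80 in the same order of groups. The glial marker S100b, the mesenchymal Lum, the myeloid Aif1 and Csf1r and the endoderm marker Afp were below the filter on dim genes. Of 4 endothelial and myeloid markers, 0 passed in siPRMT1 and 2 fell in siPRMT8 against either control. Of 3 endoderm markers, 1 rose in siPRMT1 and 0 passed in siPRMT8 against siSCR, and 0 passed in siPRMT1 and 1 fell in siPRMT8 against D3. The part of these cell types in the replication gene values was not tested.

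**Figure D5:**
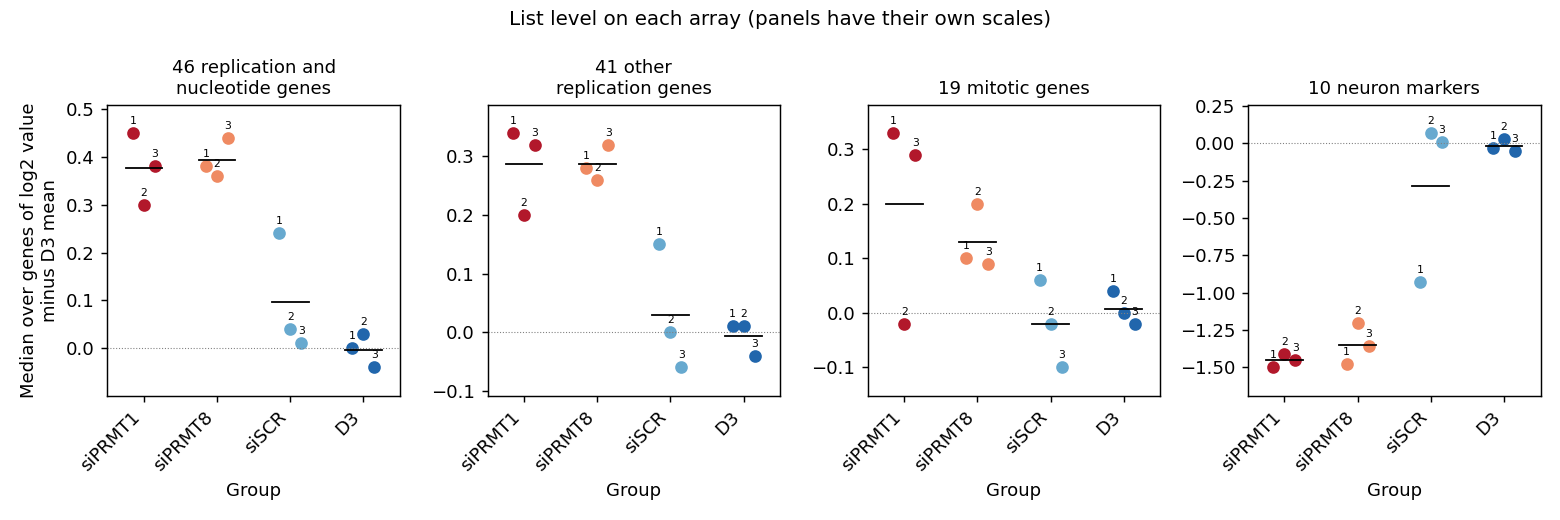
Points are the median over a gene list of the log2 value minus the D3 mean on each array, numbered by replicate, and black lines are group means; the 4 panels have their own scales. The replication genes lie at 0.30 to 0.45 in the knockdown arrays and -0.04 to 0.24 in the control arrays, and siSCR replicate 1 is the control array nearest to the knockdown arrays in the replication and the neuron panels.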

How the data were processed

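Gene expression was measured on 12 arrays, 3 for each of 4 groups taken from the sample titles. The deposited table held 1 log2 value for each of 35556 probe sets and each array (0.97 to 13.54; a scale inferred from the numbers themselves). Per the labels' protocols, biotin-labelled cDNA from total RNA was hybridised to each array. The background correction, summarisation and normalisation were not given in the sources used, and no normalisation was added, since the array medians differed by at most 0.023. The spread of values did differ, with an interquartile range of 2.89 to 3.04 on knockdown arrays and 3.06 to 3.13 on control arrays. With quantile normalisation, which gives each array the same distribution, 30 members rose in siPRMT1 and 29 in siPRMT8 against siSCR, and 41 in each line against D3. No background level was available, so levels of different probe sets were not compared, and the number of arrays limits the precision.

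Of the probe sets, 21789 had 1 gene symbol in the platform annotation, 1621 had several and 12146 had none there. Current symbols came from the RefSeq table of GRCm38.p6, matched on gene ID for 21698. For 999 genes with several probe sets the one with the highest mean was used, and genes in the lowest 25% by mean (below 5.43) were left out.

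Groups were compared by limma 3.58.1 under R 4.3.3 (lmFit, then eBayes; 4 group means, 8 residual degrees of freedom), with Benjamini-Hochberg adjustment over 14953 genes and a threshold of 0.05. SE is the moderated standard error. The members and gene lists were chosen with earlier results of these data known. Values on every array are given for 6 textbook members, for the 2 members of each role with the largest difference from siSCR in either line, and for members that pass between the knockdown lines or between the control lines (none did). Cdt1, Pold1 and Pold2 were added for their values. Up to 3 passing genes of each other list are named, plus Mki67, Top2a, Prmt1, Prmt8 and E2f1. Tested on simulated data made like siPRMT1 and siSCR with 200 changed genes, this fit called 71.6% of the 1.5-fold changes, 94% of those of 2-fold and 100% of those of 4-fold. It made 13 false calls. The members' differences between siPRMT1 and siSCR were smaller, with a median of 1.24-fold and a highest value of 1.38-fold. No change of that size was simulated, so these rates do not show how many such changes the fit would call. Deviations of same-numbered replicates from their group means correlated above 0.1 in all 3 pairs for siSCR and D3 only (0.107 to 0.194), a comparison in which differently numbered arrays also reached 0.107. The alternatives were other scalings, filters, uses of probe sets, variance models and array weights, a fit of only the 2 groups compared, a replicate block and leaving out arrays.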

Additional observations from a re-analysis of the deposited data

How the results depend on the processing

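Under 16 alternative settings per comparison, no difference of the 23 members followed changed sign after being called. In siPRMT1 against siSCR the count of members that passed, 29 of 46, was 1 in the fit of those 2 groups alone, 44 with array weights, 43 without both siSCR replicate 1 and siPRMT1 replicate 2, and 8 to 37 with 1 array left out; the cause was not tested. Over all genes the count in that comparison, 2801, was 357 and 5528 under the first 2 of these settings, and 5077 (34.0%) without both arrays. In siPRMT8 against siSCR the count, 27, was 42 without both siSCR replicate 1 and siPRMT1 replicate 2, and 16 to 39 with 1 array left out. Without both arrays 5710 of all genes (38.2%) passed there. Against D3 the count, 41 in each line, was 36 to 45 in siPRMT1 and 39 to 44 in siPRMT8 under the other settings, and 29 to 41 and 32 to 36 with 1 array left out. The share of all genes moved as well, to 18.8% to 44.1% and 19.1% to 44.0% under the other settings. With 1 array left out it was 17.7% to 31.0% and 18.3% to 22.5%. Between siPRMT1 and siPRMT8 the count, 0, was 4 with array weights, 7 without both siPRMT1 replicate 2 and siSCR replicate 1, and 0 to 1 with 1 array left out. In the first 2 of these settings 1046 and 1901 of all 14953 genes passed, shares near those of the members. Between siSCR and D3 it was 0 in every setting run. With the replicate block the counts were 26 in siPRMT1 and 27 in siPRMT8 against siSCR, 38 and 40 against D3, and 0 in the last 2 comparisons, so the block moved no count of members by over 1.5 times. Of 17 followed members called in siPRMT1 against siSCR, 1 passed in every setting (Pole2), and of 16 called in siPRMT8, 10 did. No background signal was available, so precision at low signal could not be set.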
